A study of Homo sapiens with 6 samples.

Results

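The expression of 9 tight junction genes was examined in the RNA of ARPE-19 cells with and without a knockout of POLDIP2. The genes were taken by name and are CLDN1, CLDN3, CLDN11, CLDN12, CLDN19, OCLN, F11R, TJP1 and CGN. All 9 have a row among the 37902 genes of the normalised count table, and 8 of them passed the filter of a mean of at least 10 normalised counts over the 6 libraries, which left 14684 genes to test. CLDN19 is the member that stayed below the filter. ARPE-19 is a long-used human line grown out of the retinal pigment epithelium, RPE for short, which is the pigmented cell layer behind the photoreceptors. The WT group is the parental line, and the POLDIP2 KO group is the same line after lentiviral delivery of SpCas9 with a guide RNA against the coding sequence of POLDIP2 and antibiotic selection. The KO cells are a selected, transduced line that is not stated to come from a single cell, so effects of the lesion and of the selection of this line cannot be told apart. Each line was sampled in 3 biological replicates at day 3 under regular maintenance, with no treatment. The lines are described as split while still subconfluent, and the density at RNA harvest is not given in the sources used here.

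The reads assigned to genes, as recovered from the normalised counts, numbered 39657489, 36517259 and 35515478 for WT in the order of the replicate numbers, and 31532797, 45795509 and 38293289 for POLDIP2 KO. At these depths 3 reads, taken here as the floor of detection, are worth 2.44 to 3.69 normalised counts. POLDIP2 itself had 3919, 4827 and 4798 normalised counts in WT and 1063, 1248 and 1143 in POLDIP2 KO, so every library followed its label. The cells carried RNA of the epithelial keratins KRT8 (36970 to 48481 normalised counts) and KRT18 (29007 to 35762) and of the RPE transcription factors MITF (2955 to 4503) and OTX2 (574 to 883). KRT19, of the same keratin list, stayed below the filter. Of the other RPE markers, BEST1 (61.4 to 669 normalised counts), RDH5 (188 to 322), PMEL (36.7 to 103), LRAT (22.1 to 106) and RLBP1 (19.7 to 68.2) were present in every library, while RPE65 and TTR were listed at 0 in all 6 libraries. The pigment genes TYR, with at most 3 reads, and DCT, with at most 4, were at 0 in several libraries, and TYRP1 ranged from 1.04 to 27.1 normalised counts. The epithelial cadherin CDH1 reached at most 13.5 normalised counts and EPCAM at most 5.02, whereas the neural cadherin CDH2 ranged from 7614 to 15611. The endothelial genes CDH5 and CLDN5 did not exceed 1 read in any library, while KDR (19.8 to 161 normalised counts) and VWF (11.5 to 41.5) of the endothelial list were present at low levels and ESAM reached at most 7.33. Of the leukocyte list, PTPRC did not exceed 6.95 normalised counts and CD14 did not exceed 6.51, LYZ had 13.5 to 29.1, and CD68, a lysosomal gene that is not restricted to leukocytes, had 1680 to 2187. RDH5, PMEL, RLBP1, TYR, DCT, TYRP1, RPE65, TTR, KRT19, CDH1, EPCAM, CDH5 and PTPRC were picked from the marker lists after their values were seen.

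Tight junctions seal the space between neighbouring epithelial cells, and in the RPE they form the outer part of the barrier between blood and retina. Claudins are membrane proteins with 4 transmembrane spans that assemble into strands and set which ions and small solutes can pass. Occludin (OCLN) is another such membrane protein of the strands, and junctional adhesion molecule A (F11R) is an immunoglobulin-type adhesion protein beside them. The scaffold ZO-1 (TJP1) and cingulin (CGN) lie on the cytoplasmic face and tie the strands to actin and myosin. In native human RPE, claudin 19 is known as the predominant claudin.

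The 3 members with the largest measured differences between the lines, CLDN11, CLDN3 and CGN, are shown with the DNA around their transcription starts, where these RNAs begin. The RefSeq windows on GRCh38.p14 run from 250 bases before the start to 50 bases after it, and 7 of the 9 members have at least 1 such window. Each is written 5′ to 3′ on the strand of the gene, with searched motifs in capitals. The motifs were the E-box CAGGTG, read as CACCTG on the other strand and known to be bound by SNAI and ZEB repressors, and AACNNGTT, a core known from the Grainyhead-like factors that reads the same on both strands. The CLDN3 window lies at chr7:73770221-73770520 on the minus strand, the printed CLDN11 window at chr3:170418618-170418917 on the plus strand and the CGN window at chr1:151511137-151511436 on the plus strand. CLDN11 has a second window, at chr3:170420976-170421275 on the plus strand, that is not printed.
CLDN3: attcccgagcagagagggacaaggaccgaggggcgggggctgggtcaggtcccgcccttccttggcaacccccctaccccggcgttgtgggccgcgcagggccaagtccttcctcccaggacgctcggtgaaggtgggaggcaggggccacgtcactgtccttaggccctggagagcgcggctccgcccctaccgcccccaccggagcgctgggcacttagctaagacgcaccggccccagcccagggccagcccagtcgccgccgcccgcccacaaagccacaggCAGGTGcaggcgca
CLDN11: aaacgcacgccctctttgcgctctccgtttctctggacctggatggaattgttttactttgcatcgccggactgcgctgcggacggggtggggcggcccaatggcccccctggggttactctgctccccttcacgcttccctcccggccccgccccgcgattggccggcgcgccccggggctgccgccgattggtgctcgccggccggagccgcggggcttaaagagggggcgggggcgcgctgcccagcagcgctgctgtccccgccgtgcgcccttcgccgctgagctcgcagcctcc
CGN: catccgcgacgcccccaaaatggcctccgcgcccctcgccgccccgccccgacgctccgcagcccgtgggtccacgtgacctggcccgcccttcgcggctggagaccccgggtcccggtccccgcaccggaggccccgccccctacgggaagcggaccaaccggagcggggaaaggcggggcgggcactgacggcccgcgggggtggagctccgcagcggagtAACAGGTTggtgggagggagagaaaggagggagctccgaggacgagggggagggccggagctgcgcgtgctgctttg
The CLDN3 window holds 1 E-box, which begins at base 37 of the transcript. The CGN window holds 1 AACNNGTT match, which begins 27 bases before the start, and no E-box, and the 2 motifs share no bases in these windows. The printed CLDN11 window holds neither motif, and its second window holds neither as well. Of 35116 RefSeq windows of this length, 20.6% hold an E-box and 3.52% hold AACNNGTT. Of the 12 windows of the 7 members, 4 hold an E-box, and they belong to CLDN3, OCLN (2 overlapping windows) and TJP1. A match describes the letters only, and binding was not measured.

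The first question was which claudins these cells express. Of 23 claudin genes in the table, 8 were expressed by the filter of a mean of at least 10 normalised counts, and they were CLDN1, CLDN3, CLDN4, CLDN11, CLDN12, CLDN15, CLDN16 and CLDN23. The same genes and CLDN9, 9 in all, had more than 3 reads in every library of both lines. A further 6 claudins (CLDN8, CLDN10, CLDN14, CLDN17, CLDN24 and CLDN25) were listed at 0 in all 6 libraries, and 11 did not exceed 3 reads anywhere. CLDN2, CLDN6, CLDN9 and CLDN19 exceeded 3 reads in at least 1 library without passing the filter. CLDN7 is not analysed here. The count of 9 became 11 when any read was accepted and 7 when more than 10 reads were required, which left out CLDN9 and CLDN16. CLDN16 passed the filter only narrowly, with 5, 23 and 10 reads in WT and 8, 32 and 11 in POLDIP2 KO. CLDN9 had 4, 8 and 11 reads in WT and 9, 8 and 5 in POLDIP2 KO.

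CLDN19 was represented by 5, 0 and 1 reads in the WT libraries and by 0, 0 and 2 reads in the POLDIP2 KO libraries, in the order of their replicate numbers. A count of 0 allows up to 3 reads, and only WT replicate 1 lay above that floor, so neither its presence in both lines nor a difference between them was detectable at this depth. The gene lies at chr1:42733093-42740254 (GENCODE release 44 on GRCh38, as for all gene positions here).

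To compare levels between genes, normalised counts were divided by the length of the representative transcript, which gives normalised counts per kb. CLDN11 was at 657 ± 207 normalised counts per kb in WT (SD, n = 3) and 1101 ± 297 in POLDIP2 KO. CLDN12 was at 653 ± 92.7 and 624 ± 111, and CLDN1 at 441 ± 228 and 391 ± 57.2, in WT and KO. CLDN15, an ion-conducting claudin known from the gut, was at 364 ± 74.7 and 423 ± 51.2, so that in POLDIP2 KO its mean lay above that of CLDN1, an order that turned with total exon length (179 for CLDN15 and 371 for CLDN1). CLDN3 stood at 131 ± 27.5 and 81.6 ± 32.3. CLDN11, CLDN12 and CLDN1 together made up 71.8% to 81.2% of the summed claudin level per kb in the 6 libraries. The summed level was 2348 ± 496 normalised counts per kb in WT and 2681 ± 441 in POLDIP2 KO, and the lines overlapped (exact unpaired permutation test, two-sided, p = 0.5, with 0.1 as the smallest p that 3 against 3 libraries allow). By replicate number the sum was 1810, 2788 and 2445 in WT and 2218, 3096 and 2728 in POLDIP2 KO. It was thus higher in POLDIP2 KO in each same-numbered pair, and a paired difference was not tested. CLDN11 is part of this sum, at 452, 653 and 866 normalised counts per kb in WT and 765, 1330 and 1208 in POLDIP2 KO. The expressed claudins did not all follow the sum. CLDN15 was higher in POLDIP2 KO in 3 of 3 pairs, while CLDN12 was lower in 2, CLDN1 in 1 and CLDN3 in 3. The share of CLDN11 in that sum was 25.0%, 23.4% and 35.4% in WT and 34.5%, 43.0% and 44.3% in KO (exact unpaired permutation test, two-sided, p = 0.2). This share was also higher in KO in each same-numbered pair. The share of CLDN12 was 30.7%, 26.6% and 27.1% in WT and 22.4%, 22.8% and 24.5% in KO, without overlap (p = 0.1 in the same exact test), while its own level per kb overlapped between the lines. The share of CLDN1 was 18.2 ± 6.19% and 14.7 ± 2.46% (SD, n = 3, exact permutation p = 0.6). A share also depends on the other claudins in the sum.

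**Figure D1:**
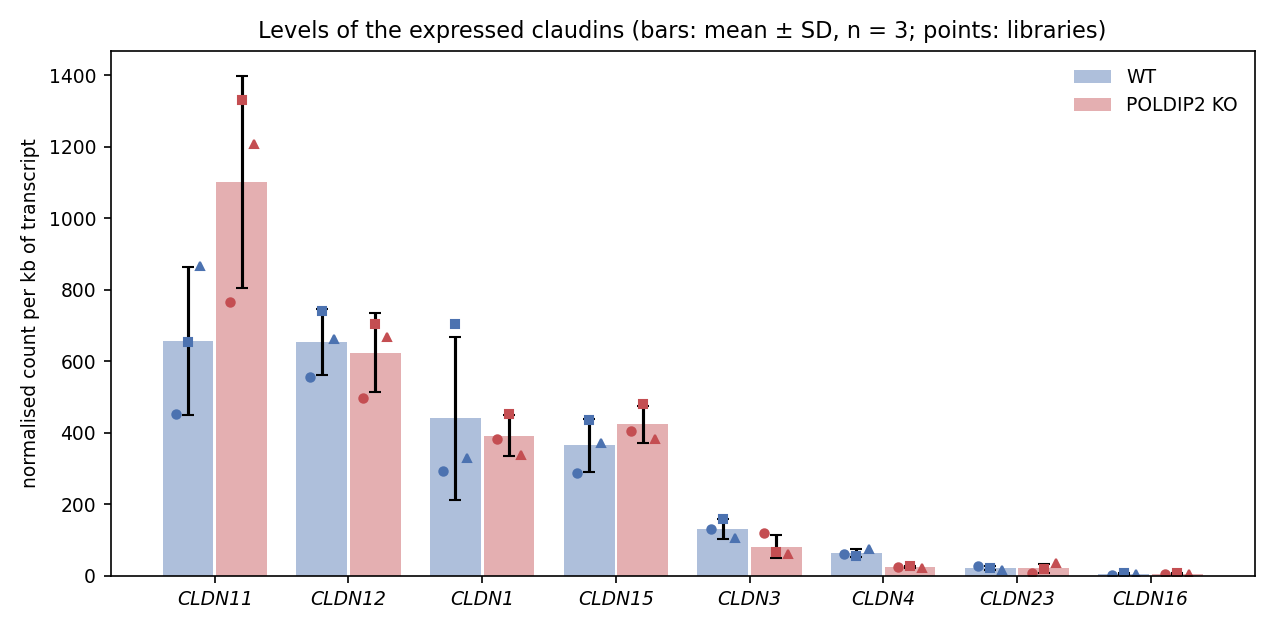
Levels of the 8 expressed claudins in normalised counts per kb of transcript, with bars for the mean, error bars for the SD (n = 3) and points for single libraries (circle, square and triangle for replicates 1, 2 and 3) of WT and POLDIP2 KO. CLDN11 has the tallest bar in POLDIP2 KO (1101), while CLDN11 and CLDN12 have bars of nearly equal height in WT (657 and 653).

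Among all 8 tested members, the WT order per kb was CLDN11, CLDN12, CLDN1, F11R (373 ± 59.3 normalised counts per kb), TJP1 (346 ± 102), OCLN (151 ± 31.8), CLDN3 (131 ± 27.5) and CGN (59.0 ± 12.1). In WT the libraries of each gene overlapped those of the next gene except at the steps from TJP1 to OCLN and from CLDN3 to CGN. In POLDIP2 KO the order was CLDN11, CLDN12, F11R (419 ± 54.1), CLDN1, TJP1 (355 ± 58.7), OCLN (134 ± 12.2), CLDN3 and CGN (40.2 ± 3.01). There the libraries of F11R overlapped those of CLDN1 and those of CLDN1 overlapped TJP1, and the other steps were free of overlap. With total exon length in place of transcript length, CLDN1 (419) moved above CLDN12 (344) and CLDN3 (131) above OCLN (83.0) in WT. The order of these genes is therefore given for one choice of transcript only. The reads of CLDN12 lie in a locus shared on the same strand with CDK14 and GTPBP10, and those of CLDN11 and F11R in loci shared with another annotated gene each, so their levels depend on how reads were assigned.

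The main question was whether the members differ between POLDIP2 KO and WT. No member passed an adjusted p of 0.05 and a fold change of 1.5 in limma, 0 of 8, where 0.170% of all 14684 genes tested did (25 genes). The direction differed between members, with 5 lower and 3 higher in POLDIP2 KO, and their median log2 fold change was -0.070, beside -0.00029 for all genes tested. An unadjusted p under 0.05 was reached by 2 of 8 members, CLDN11 and CGN, where 6.48% of all genes reached it. On recovered reads, edgeR called 0 of 8 (0.116% of all genes) and DESeq2 called 0 of 8 (1.70%). The libraries of the lines did not overlap for 1 of 8 members, CGN, where 10.9% of all genes showed no overlap and 5.44% showed it with POLDIP2 KO lower. Since RNA was taken from whole cultures, fewer cells with a transcript and less of it per cell cannot be told apart. The all-gene count of 25 was 10 without replicate 1 of either line, and 0 without replicate 2 or 3 of either line, where 693 to 903 genes had an unadjusted p under 0.05.

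CLDN11 encodes the claudin also known from myelin and from the Sertoli cell barrier, and lies at chr3:170418868-170454733 with 3 exons. It had 1248, 1800 and 2389 normalised counts in the WT libraries, in the order of their replicate numbers, and 2111, 3669 and 3331 in the POLDIP2 KO libraries. POLDIP2 KO replicate 1 lay below WT replicate 3, while the other KO libraries lay above every WT library. The log2 fold change was 0.75 ± 0.29 (SE, limma), a fold of 1.69 with a 95% interval of 1.05 to 2.71, and did not pass adjustment (limma p = 0.0351, adjusted p = 0.693, exact permutation p = 0.2). Within same-numbered libraries it was higher in POLDIP2 KO in 3 of 3, by 0.76, 1.03 and 0.48 on the log2 scale, and 32.7% of all genes kept 1 direction in all 3 pairs. With the replicate number as a block, limma gave an adjusted p of 0.113 (0.204% of all genes called) and DESeq2 an adjusted p of 7.15e-05, which passed the threshold (2.67% of all genes called). Over the other settings its adjusted p was 0.135 (edgeR with the replicate block) to 0.758 with all libraries and 0.408 to 0.9996 with 1 library left out.

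CLDN3, a sealing claudin of many epithelia, is a gene of 1 exon at chr7:73768997-73770270. It had 165, 203 and 133 normalised counts in WT and 151, 83.0 and 77.5 in POLDIP2 KO. POLDIP2 KO replicate 1 lay within the WT range, and the other KO libraries lay below all WT libraries. The log2 fold change was -0.72 ± 0.32 (SE), a fold of 0.605 with a 95% interval of 0.357 to 1.03 (limma p = 0.0596, adjusted p = 0.812, exact permutation p = 0.2). It was lower in POLDIP2 KO in 3 of 3 same-numbered pairs, with differences of -0.13, -1.28 and -0.77 on the log2 scale.

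CLDN1, a barrier-forming claudin known from the skin, lies at chr3:190305707-190322446 with 4 exons. It had 1004, 2423 and 1131 normalised counts in WT and 1321, 1556 and 1164 in POLDIP2 KO. WT replicate 2 lay above all other libraries, and the KO values fell inside the WT range. The log2 fold change was -0.067 ± 0.33 (SE, limma adjusted p = 0.9998), with a 95% interval of 0.558 to 1.63 for the fold, and it was 0.33 without WT replicate 2 and 0.033 without POLDIP2 KO replicate 3. CLDN12, which lacks the C-terminal PDZ-binding motif typical of claudins, lies at chr7:90383721-90513402. It had 1965, 2618 and 2341 normalised counts in WT and 1758, 2492 and 2363 in POLDIP2 KO, and the ranges of the lines almost coincided. Its log2 fold change was -0.073 ± 0.17 (SE, limma adjusted p = 0.9998), with a fold interval of 0.716 to 1.26, and turned to 0.023 without WT replicate 2 and 0.082 without POLDIP2 KO replicate 1.

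OCLN lies at chr5:69492292-69558104 with 9 exons. It had 744, 921 and 1137 normalised counts in WT and 747, 896 and 842 in POLDIP2 KO, with all KO values inside the WT range. The log2 fold change was -0.16 ± 0.18 (SE, limma adjusted p = 0.9998), with a fold interval of 0.670 to 1.20. F11R, at chr1:160995211-161021343 with 10 exons, had 1986, 1761 and 1439 normalised counts in WT and 2222, 1732 and 1885 in POLDIP2 KO. The lines overlapped, and the log2 fold change was 0.18 ± 0.16 (SE, limma adjusted p = 0.9998), with a fold interval of 0.872 to 1.46.

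TJP1, the scaffold that binds claudins, occludin and actin, lies at chr15:29699367-29968915 with 28 exons. It had 3271, 1811 and 2379 normalised counts in WT and 2937, 2102 and 2629 in POLDIP2 KO, so that all KO libraries lay between the lowest and the highest WT library. The log2 fold change was 0.068 ± 0.23 (SE, limma adjusted p = 0.9998), with a fold interval of 0.718 to 1.53, and it was -0.14 without WT replicate 2 and -0.039 without POLDIP2 KO replicate 1. CGN, which links the junction to actomyosin and to RhoA exchange factors, lies at chr1:151510510-151538692 with 21 exons. It had 355, 234 and 313 normalised counts in WT and 210, 188 and 217 in POLDIP2 KO. Every KO library lay below every WT library, with a gap between 217 and 234. The log2 fold change was -0.53 ± 0.21 (SE), a fold of 0.693 with a 95% interval of 0.495 to 0.970, and it did not pass adjustment (limma p = 0.0365, adjusted p = 0.703, exact permutation p = 0.1, the smallest that 3 against 3 libraries allow). CGN was lower in POLDIP2 KO in 3 of 3 same-numbered pairs.

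**Figure D2:**
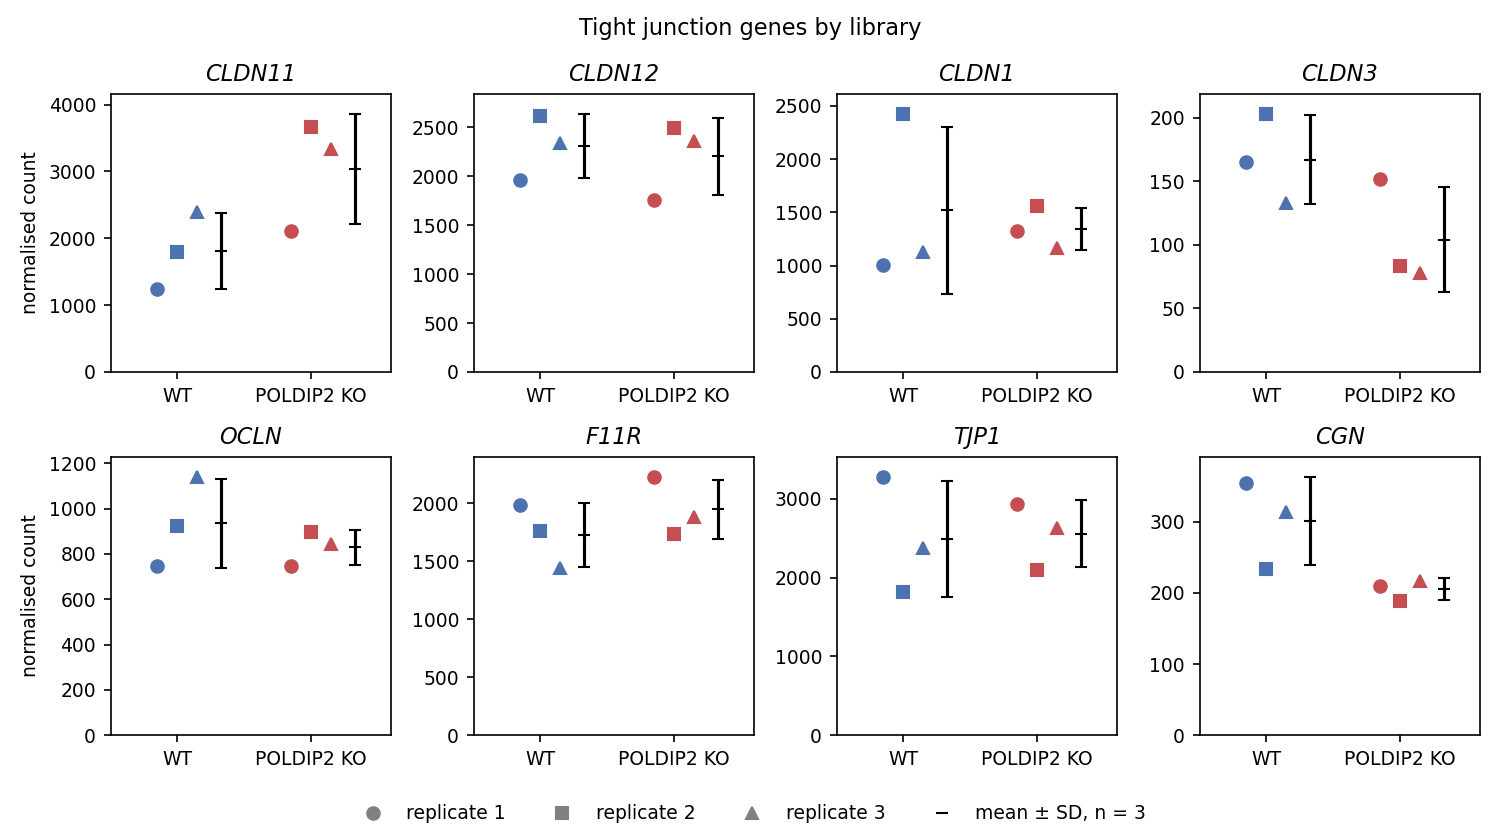
Normalised counts of the 8 tested members in each library of WT (blue) and POLDIP2 KO (red), on axes that start at 0, with the symbol giving the replicate number and the black bar giving the mean ± SD (n = 3). Only CGN shows no overlap between the lines (188 to 217 in POLDIP2 KO, 234 to 355 in WT), and CLDN11 overlaps through POLDIP2 KO replicate 1 (2111).

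The members were next compared by replicate number. Across the 14684 genes, the deviations from the mean of each line correlated at 0.31, 0.14 and 0.13 for numbers 1, 2 and 3 (across genes, which are not independent replicates). Libraries of different number correlated at -0.26 to 0.15, and WT replicate 3 with POLDIP2 KO replicate 2, at 0.15, lay above the values for numbers 2 and 3. CLDN11, CLDN12 and OCLN were lowest in replicate 1 of both lines. TJP1 and F11R were highest in replicate 1 of both lines, and CLDN1 was highest in replicate 2 of both lines. CLDN3 was lowest in replicate 3 of both lines and CGN in replicate 2 of both lines, while their highest library had different numbers in WT and POLDIP2 KO. In the limma F-test of replicate number, 4 of 8 members had an unadjusted p under 0.05 (0.00646 for CLDN11, 0.00889 for TJP1, 0.0165 for CLDN12 and 0.0443 for CLDN1), where 18.9% of all genes did. After adjustment 0 of 8 passed, with limma adjusted p from 0.128 to 0.508, where 0.913% of all genes passed. The DESeq2 likelihood ratio test on recovered reads called the same 4 members, CLDN11 (adjusted p = 0.00103), TJP1 (0.00439), CLDN12 (0.0365) and CLDN1 (0.0459), where it called 10.5% of all genes.

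**Figure D3:**
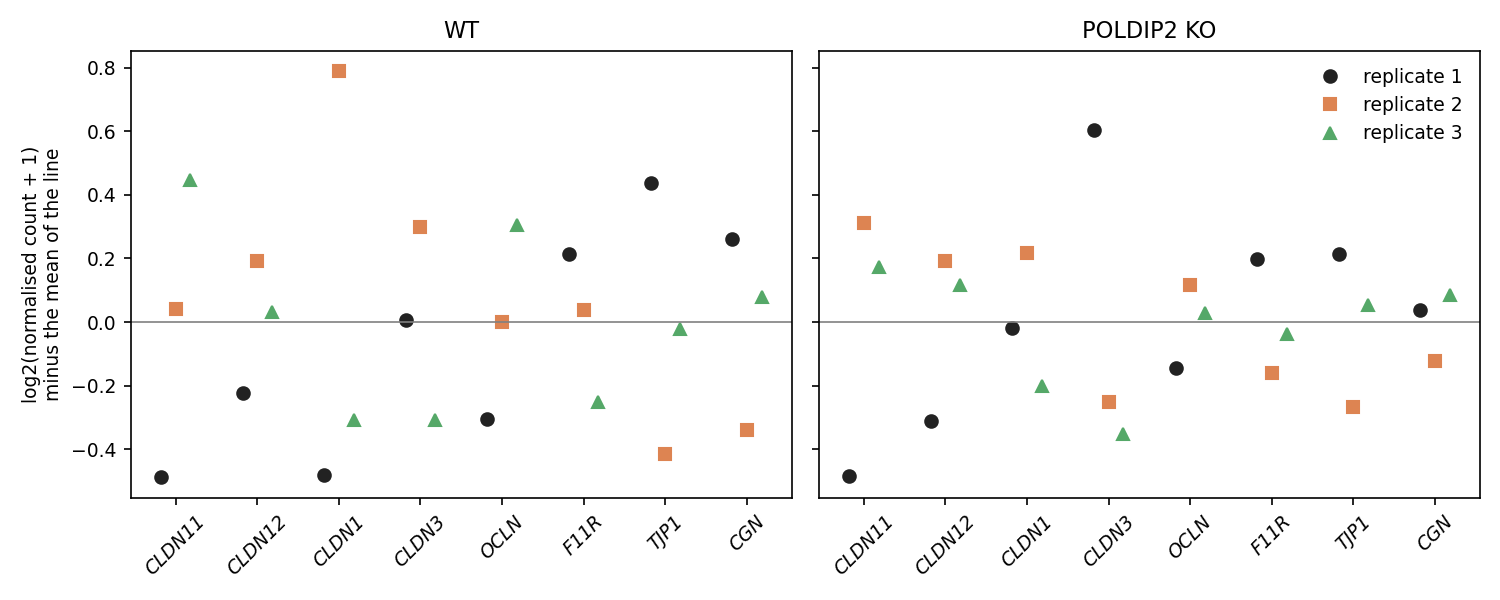
Deviation of each library from the mean of its own line, as log2(normalised count + 1), for the 8 tested members in WT (left) and POLDIP2 KO (right), with colour and symbol for the replicate number. In both panels replicate 1 is the lowest point for CLDN11, CLDN12 and OCLN and the highest for F11R and TJP1, while the full order of the 3 replicates is the same in both panels for CLDN12 and TJP1 only.

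Mesenchymal and contractile genes were read beside the replicate number. FN1, fibronectin of the extracellular matrix, had 78077, 21007 and 25817 normalised counts in WT and 95745, 30298 and 34562 in POLDIP2 KO, and its limma F-test passed adjustment (adjusted p = 0.020). COL1A1, the collagen I chain, had 2147, 320 and 677 in WT and 6956, 760 and 1953 in POLDIP2 KO (adjusted p = 0.0208). Both were highest in replicate 1 of each line and lowest in replicate 2. Of 7 mesenchymal markers tested, 5 had an unadjusted p under 0.05 for replicate number, where 18.9% of all genes did. After adjustment 2 of the 7 passed, where 0.913% of all genes did. The summed level of these markers, led by VIM, was 254628, 164058 and 164271 normalised counts in WT and 294860, 176168 and 192800 in POLDIP2 KO, and none was at 0 throughout. Of 11 junctional actomyosin genes tested, 6 had an unadjusted p under 0.05 for replicate number, beside the 18.9% of all genes. After adjustment in limma 0 passed, beside the 0.913% of all genes. MYL9, a myosin light chain chosen after its values were seen, had 24562, 9195 and 7812 in WT and 30488, 8614 and 12937 in POLDIP2 KO (adjusted p = 0.0571). Between the lines, 6 of the 7 mesenchymal markers were higher and 1 (THY1) lower in POLDIP2 KO, with a median log2 fold change of 0.14. Of these 7, limma, edgeR and DESeq2 called 0, where they called 0.170%, 0.116% and 1.70% of all genes. None had an unadjusted p under 0.05, which 6.48% of all genes reached in limma. COL1A1 stood at 1.49 on the log2 scale (limma adjusted p = 0.981) and was higher in POLDIP2 KO in 3 of 3 same-numbered pairs, by 1.70, 1.24 and 1.53. With the replicate block it was called by limma (adjusted p = 0.0436) and by DESeq2 (adjusted p = 1.8e-21) but not by edgeR (adjusted p = 0.0603). COL1A2, the other collagen I chain, had 614 normalised counts in POLDIP2 KO replicate 1 and at most 9.45 in any other library. VIM (log2 fold change 0.11), FN1 (0.41) and PDGFRB (0.14) had limma adjusted p of 0.9998. The part of these genes in the values of the members was not tested.

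The other genes of the junction were read from fixed lists in the same limma fit, and 0 genes of any list were called between the lines, where 0.170% of all genes were. Of all genes tested, 6.48% had an unadjusted p under 0.05 and 10.9% showed no overlap between the lines. Among 4 other claudins tested, 2 were lower and 2 higher, with a median log2 fold change of -0.0076, and 1 had an unadjusted p under 0.05. That gene was CLDN4, a sealing claudin whose gene lies 29272 bases from CLDN3. CLDN4 had 103, 92.3 and 126 normalised counts in WT and 39.4, 48.0 and 36.7 in POLDIP2 KO, with no overlap between the lines. Its log2 fold change was -1.35 ± 0.27 (SE, limma adjusted p = 0.186), and DESeq2 called it with an adjusted p of 0.0106, while edgeR called 0 genes of the list. With the replicate block the DESeq2 call was lost (adjusted p = 0.0832), with a log2 fold change of -1.37 in both DESeq2 fits. CLDN15 (log2 fold change 0.23), CLDN16 (0.38) and CLDN23 (-0.24), the other expressed claudins, had limma adjusted p of 0.9998 each.

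Among 7 other membrane proteins of the tight junction tested, 5 were lower and 2 higher in POLDIP2 KO, with a median log2 fold change of -0.28. An unadjusted p under 0.05 was reached by 2 of the 7, where 6.48% of all genes reached it. LSR, the angulin of tricellular contacts, had 1396, 1711 and 1301 normalised counts in WT and 1097, 1154 and 1179 in POLDIP2 KO (log2 fold change -0.35, limma adjusted p = 0.681). ILDR2, another angulin, had 19.8, 96.3 and 53.3 in WT and 4.92, 8.14 and 28.8 in POLDIP2 KO (-2.03, adjusted p = 0.715). The libraries of LSR did not overlap and those of ILDR2 did. The adhesion proteins CXADR (0.14) and JAM3 (0.14), the most abundant of the list, had limma adjusted p of 0.9998. MARVELD3, an occludin relative of low level that is named because it was the other gene without overlap, had 15.1 to 18.8 normalised counts in WT and 11.9 to 14.8 in POLDIP2 KO. No overlap was thus seen for 2 of 7 genes of the list, and for 10.9% of all genes.

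Among 28 plaque and polarity proteins tested, 20 were lower and 8 higher in POLDIP2 KO, with a median log2 fold change of -0.052, and 2 had an unadjusted p under 0.05, a share near the 6.48% of all genes. All genes tested divided into 7350 lower and 7334 higher. CRB3, the Crumbs polarity protein of epithelia, had 45.3, 46.2 and 37.6 normalised counts in WT and 18.5, 7.33 and 15.9 in POLDIP2 KO (log2 fold change -1.65, limma adjusted p = 0.383). AMOT, angiomotin, had 875, 974 and 734 in WT and 587, 634 and 558 in POLDIP2 KO (-0.53, limma adjusted p = 0.393). Neither gene overlapped between the lines, nor did the polarity gene PARD6B (-0.29, limma adjusted p = 0.805), which is named for that reason only, and 3 of 28 is again near the 10.9% of all genes. The abundant AMOTL2 (-0.0066), AFDN (0.0047) and YBX3 (-0.28) and the genes with the smallest p among those higher, MAGI2 (0.30) and PATJ (0.18), had limma adjusted p of 0.9998.

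Among 12 adherens junction genes tested, 5 were lower and 7 higher, with a median log2 fold change of 0.037. NECTIN3, an adhesion protein of the immunoglobulin superfamily, had 2064, 2092 and 2187 normalised counts in WT and 2566, 2886 and 2671 in POLDIP2 KO, with no overlap (log2 fold change 0.36, limma adjusted p = 0.383). It was the list's only gene with an unadjusted p under 0.05, which 6.48% of all genes reached. The abundant VCL (-0.065), CTNNA1 (-0.032) and CDH2 (0.13), and PLEKHA7 (0.34), JUP (-0.24) and CDH3 (-0.18), had limma adjusted p of 0.9998. The 11 junctional actomyosin genes tested had a median of 0.020 and no unadjusted p under 0.05, with MYH9, non-muscle myosin IIA, at -0.10, RHOA at 0.067, MYL12B at -0.035, MYL12A at 0.29 and CDC42 at 0.062 (limma adjusted p = 0.9998 for each).

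**Figure D4:**
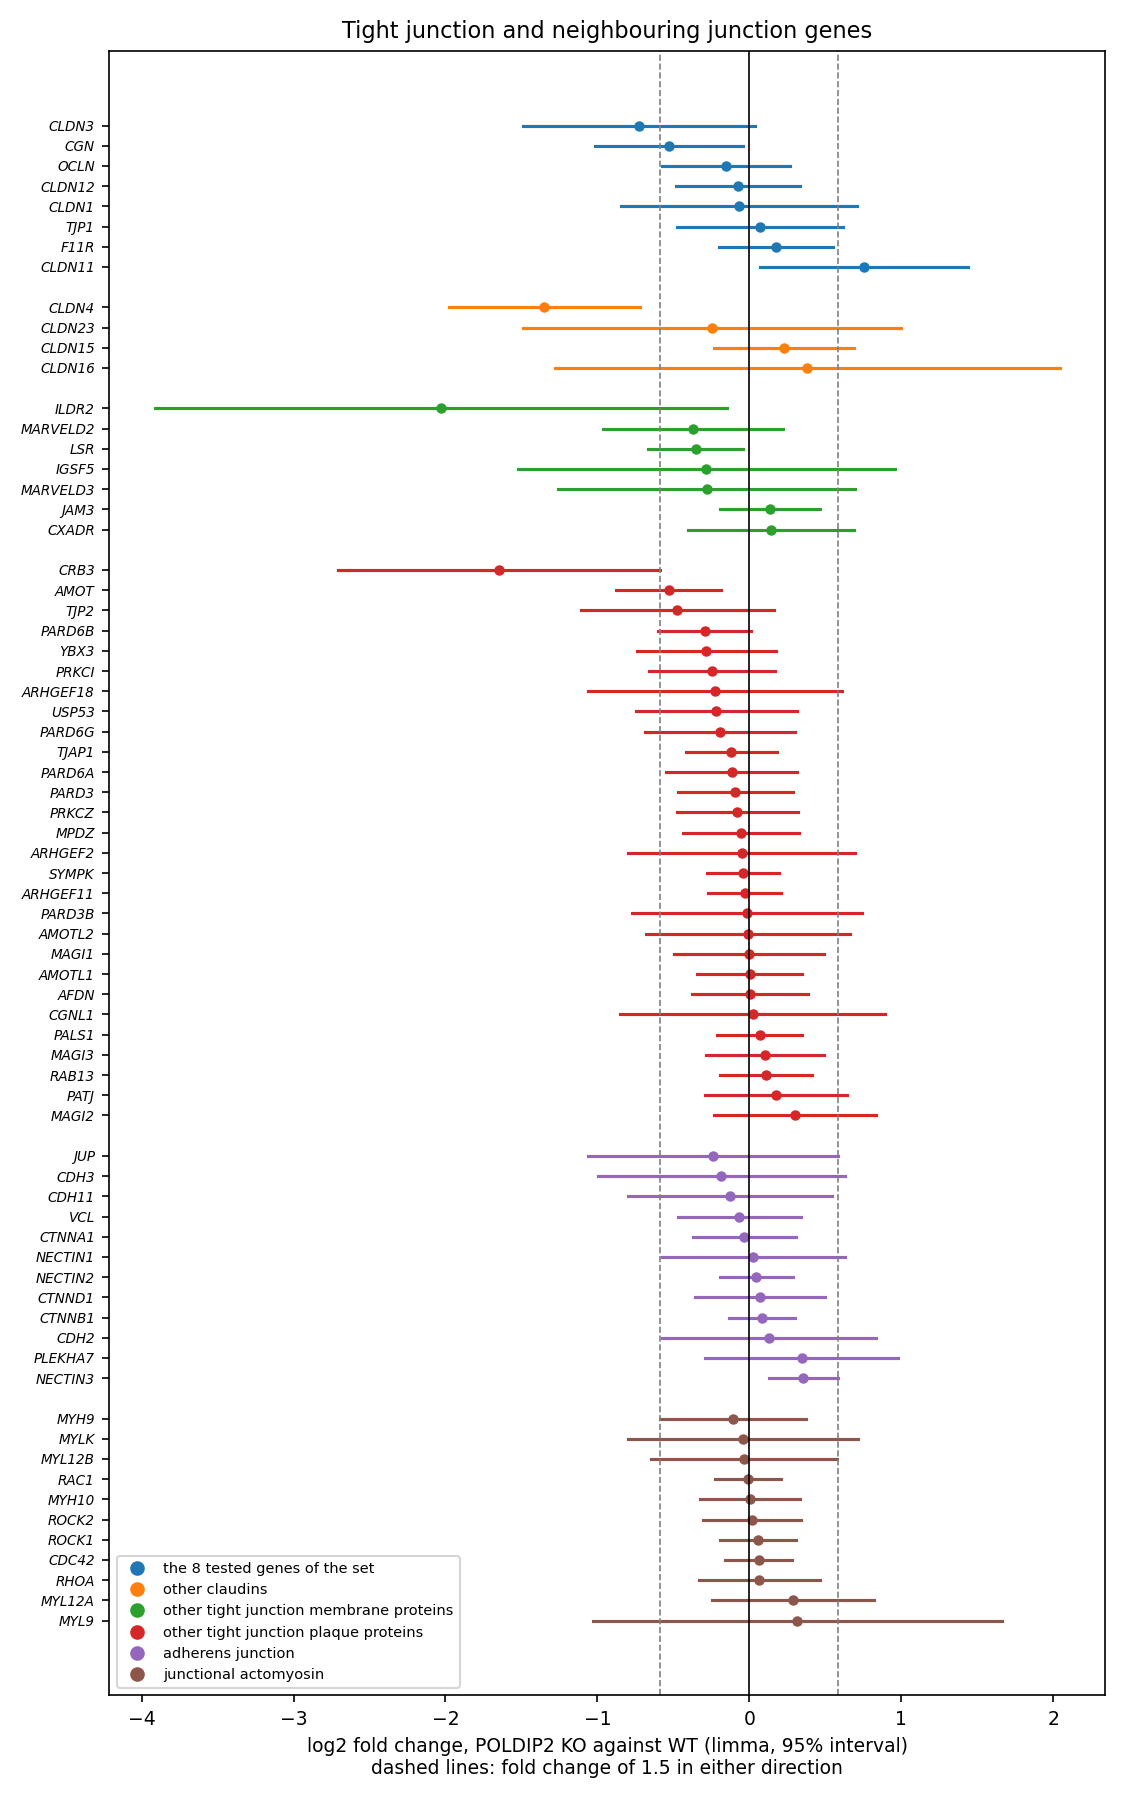
Log2 fold changes of POLDIP2 KO against WT with 95% intervals (limma, n = 3 per line) for the 8 tested members and for the tested genes of the junction lists, coloured by list, with dashed lines at a fold change of 1.5. Most intervals include 0, and the points farthest to the left are ILDR2 (-2.03), CRB3 (-1.65) and CLDN4 (-1.35).

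Markers of cell identity were read beside these values. Of 10 RPE markers tested, 6 were lower and 4 higher, with a median log2 fold change of -0.24 and 0 calls by limma, edgeR or DESeq2. Of all genes, these methods called 0.170%, 0.116% and 1.70%. LRAT, the retinol-esterifying enzyme of the visual cycle, had 106, 75.3 and 29.2 normalised counts in WT and 22.1, 24.4 and 28.8 in POLDIP2 KO (limma adjusted p = 0.731), and was the only marker of this list with an unadjusted p under 0.05. Of all genes, 6.48% reached that p. SERPINF1, the secreted factor PEDF, had 103, 168 and 108 in WT and 101, 74.1 and 49.6 in POLDIP2 KO, without overlap (-0.77, limma adjusted p = 0.822), and RDH10 (0.44), BEST1 (0.78), MITF (0.0069) and OTX2 (-0.26) had limma adjusted p of 0.955 to 0.9998. The summed level of the RPE markers, led by RDH10, was 15334, 9118 and 9466 in WT and 16150, 9453 and 12913 in POLDIP2 KO, with RPE65 and TTR at 0. Of 3 keratins tested, KRT7, a keratin of simple epithelia, had 5860, 5166 and 3076 in WT and 2074, 1765 and 1542 in POLDIP2 KO (log2 fold change -1.35, limma adjusted p = 0.160), and DESeq2 called it, while KRT8 was at 0.047 and KRT18 at -0.024. The summed level of the 5 keratin and adhesion markers, led by KRT8, was 82936, 76202 and 69976 in WT and 86348, 64996 and 72556 in POLDIP2 KO. ESRP2, a splicing regulator of epithelial cells that was chosen after its values were seen, had 213, 183 and 210 in WT and 30.8, 34.2 and 29.8 in POLDIP2 KO (log2 fold change -2.64, limma adjusted p = 0.0204). Whether these genes have a part in the values of CLDN3, CLDN4 or CGN was not tested. Of 7 endothelial markers 2 passed the filter (KDR and VWF) and had log2 fold changes of 0.037 and 0.0029, and of 5 leukocyte markers 2 passed (CD68 and LYZ), at 0.011 and -0.36, with limma adjusted p of 0.9998 for all of these.

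The genes whose pattern over the 6 libraries was most like that of CLDN11 and CLDN3, the members with the largest spread, were taken from 12764 genes with a mean of at least 50 normalised counts. For CLDN11 they were SEMA3F (Pearson r = 0.996), ZBED10P (0.992) and CTNNB1 (0.991). The correlation does not measure the size of a change. CTNNB1 had 9943, 10492 and 10749 normalised counts in WT and 10593, 11208 and 11259 in POLDIP2 KO (log2 fold change 0.084, limma adjusted p = 0.9998). SEMA3F, a secreted semaphorin, had 108, 168 and 276 normalised counts in WT and 245, 605 and 515 in POLDIP2 KO, and like CLDN11 it was lowest in replicate 1 of both lines. For CLDN3 they were YTHDF3 (0.992), AP3D1 (0.989) and LIMD2 (0.988). LIMD2, a LIM domain protein, had 79.4, 95.3 and 76.2 in WT and 82.4, 54.5 and 54.6 in POLDIP2 KO, with KO replicate 1 inside the WT range as for CLDN3. These values were the highest among many genes in the same 6 libraries and are descriptions only.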

How the data were processed

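RNA was sequenced from WT ARPE-19 cells and the POLDIP2 KO line, 3 replicates each (poly-A selected, stranded, single-end). Reads were quantified by the authors with Salmon 1.8 and summed to genes on GRCh38, and the deposited signal is the gene count divided by a size factor from DESeq2 1.34.0. The annotation release is not given in the sources used here, and symbols and positions came from GENCODE release 44. The table has a column for each library and no others (0 columns unused). Whole reads were recovered from the step of 1 read, within a tolerance of 0.001. The step is close to 1 in WT replicate 2 and POLDIP2 KO replicate 3, where whole values say little. Any length correction made while summing to genes cannot be seen in the table.

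Lines were compared by limma 3.58.1 (R 4.3.3; eBayes with trend, Benjamini-Hochberg adjustment), applied to log2(normalised count + 1) where the mean reached 10. Fold changes are on this scale and understate the change of low genes. Calls needed an adjusted p under 0.05 and a fold change over 1.5, and intervals are 95%. edgeR 4.0.16 and DESeq2 1.42.0 on recovered reads were alternatives, beside the replicate block and leaving out each library. Replicate number was tested by a moderated F-test beside the line. The numbers were taken to pair the libraries, because each same-numbered pair correlated above 0.1 (0.31, 0.14 and 0.13), although WT replicate 3 and POLDIP2 KO replicate 2 correlated at 0.15, so the pairing is a hint from the data and not from the labels. The scripts were tested on simulated data.

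The members and lists were chosen with earlier results of these data known. Named genes are all members, from each list the 3 most abundant genes, the 2 with the smallest p in each direction and any called, and the 3 genes most like each of the 2 members with the largest spread. Other genes (MYL9, ESRP2, MARVELD3, PARD6B and the cell type markers marked so in the text) were chosen after their values were seen. Of 131 listed symbols 129 matched a row, and CLDN7 and POPDC1 are not analysed here. The list results are printed in the text, where ESAM and CLDN5 belong to 2 lists. Counting intervals and the floor of 3 reads cover counting error only.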

Additional observations from a re-analysis of the deposited data

How the results depend on the processing

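The call of 0 of 8 members held in every alternative except DESeq2 with the replicate block, which called 1 member, CLDN11. The all-gene count of 25 was 16 with a mean of at least 50, 248 with DESeq2, 5 with edgeR and the replicate block, 392 with DESeq2 and the replicate block, and 30 with limma and the replicate block. Leaving out 1 library gave 0 to 10 genes and no member called. In the junction lists around the members DESeq2 called 1 gene, CLDN4, and 0 with the replicate block (adjusted p of CLDN4 = 0.0832). In the marker lists DESeq2 called KRT7 without the block (adjusted p = 1.91e-05) and with it (2.57e-15). COL1A1 was called with the block only, by limma and DESeq2 and not by edgeR. The limma block changed no call of a member. CLDN1 turned to 0.33 without WT replicate 2 and 0.033 without POLDIP2 KO replicate 3, with a range of -0.31 to 0.33 over libraries left out. CLDN12 turned to 0.023 without WT replicate 2 and 0.082 without POLDIP2 KO replicate 1 (range -0.18 to 0.082), and TJP1 to -0.14 and -0.039 without the same libraries (range -0.14 to 0.29). CLDN3 (-1.03 to -0.55), CLDN11 (0.51 to 1.00), OCLN (-0.31 to -0.0036), F11R (0.050 to 0.28) and CGN (-0.70 to -0.40) kept their sign when 1 library was left out. The members without overlap numbered 1 to 3 of 8 when 1 library was left out, where 17.1% to 23.7% of all genes showed no overlap. The count of 134 genes for replicate number was 11 without trend, 71 with edgeR and 1509 with DESeq2, which called 4 members. The mean WT share of CLDN11, CLDN12 and CLDN1 in the claudin level was 74.3%, and 77.1% with total exon length. The causes were not tested.

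With 3 libraries a line, the exact test cannot go below 0.1, and the fold intervals run from 0.558 to 1.63 for CLDN1 and from 0.718 to 1.53 for TJP1. CLDN19 and the claudins at the floor cannot be compared at this depth. RNA levels do not measure strands, localisation or barrier function, and the density of the sequenced cultures is not given in the sources used here.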
